A study of Danio rerio with 8 samples.

Results

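The genes described here code for the parts of the proteasome and for the antigen presentation machinery that it feeds. They are the 80 of 25309 entries in the deposited expression table whose symbol begins with psma to psmg and a digit, with mhc1 or mhc2, or with cd74, b2m, tap1, tap2 or tapbp. One of the 80, psmc3ip, matches by its letters alone: in mammals it is a meiotic recombination factor and not a proteasome subunit. RNA-seq libraries of zebrafish spinal cord came in 4 groups of 2: mstnb mutants at 1 week post injury (1 wpi), uninjured mstnb mutants, wild-type siblings at 1 wpi, and uninjured wild-type siblings. The mutated gene, mstnb, codes for a zebrafish myostatin, a secreted growth factor of the TGF-beta family known as a brake on muscle growth; the labels do not name the mutant allele. Injured fish had had the cord cut right through, and each library came from 2 mm of cord, which in injured fish held the lesion with some tissue on either side. Fish of both sexes, 3 to 9 months old, were used in all groups, and how many animals went into a library is not stated in the labels.

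The proteasome is the barrel-shaped protease that breaks down ubiquitin-tagged proteins in every cell. Its 20S core is built of stacked rings of alpha and beta subunits, and only some of the beta subunits cut; the 19S cap recognises, unfolds and feeds in the substrate. In immune cells and under interferon, inducible beta subunits replace the constitutive cutting subunits and PA28 replaces the cap, and the peptides made are carried into the endoplasmic reticulum by TAP, loaded with the help of tapasin on class I molecules paired with beta-2-microglobulin, and shown to T cells. Class II molecules show peptides from engulfed material instead, and the invariant chain, cd74, holds their groove shut until they reach the endosome. In the spinal cord, microglia and incoming macrophages are the usual carriers of class II.

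Expression is given as CPM, the reads of a gene scaled to the read total of its library. A CPM is not divided by transcript length, so levels are compared between libraries and not between genes. Of the 80 genes, 75 reached a mean of 1 CPM in at least 1 group and were tested; mhc1lba, mhc1lia, mhc1uba, mhc2b and mhc2dbb did not. Depth ran between 20082743 and 33410514 reads per library. Mitochondrially coded genes took 13.3% and 13.2% of the reads in injured mutants, 32.8% and 21.5% in uninjured mutants, 13.1% and 12.6% in injured wild type, and 22.6% and 23.4% in uninjured wild type. The median log2 change of all 19114 genes tested with injury, averaged over genotypes, was 0.31, and it was 0.14 with mitochondrial reads taken out of the totals. Unless said to be as measured in CPM, log2 changes below are given relative to the all-gene median of the same comparison ("relative change", with the limma standard error), while an adjusted p belongs to the change as measured in CPM. With TMM scaling, which equalises the libraries over most genes, that median was 0.00, so calls that also pass with TMM do not rest on it. Oocyte transcripts, which cord should lack, summed to 1659 and 467 CPM in injured mutants, 96.6 and 27.1 CPM in uninjured mutants, 20.2 and 20.9 CPM in injured wild type, and 1293 and 235 CPM in uninjured wild type. The main counts are also given without the richest library of the mutants and of the wild type. Transcripts of mstnb itself were at 11.9 and 17.7 CPM in injured mutants, 10.2 and 26.4 CPM in uninjured mutants, 45.2 and 42.2 CPM in injured wild type, and 48.8 and 74.8 CPM in uninjured wild type, lower in every mutant library.

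Averaged over genotypes, 37 of the 75 genes tested were called higher and 0 lower by limma (49.3%), where 11% of all genes tested were called higher and 1.21% lower. The 37 comprised 20 of 35 constitutive subunits of the core and cap, all 5 inducible beta subunits, both PA28 subunits that work with them, 2 of 3 tapasins, 3 of 9 class I heavy chains, 2 of 3 class II chains, both invariant chains and 1 of 6 assembly chaperones. Counts of called genes by role, here and in the paragraphs below, are to be read beside that 11%. The median relative change of the 75 genes was 0.41, and 62 of them lay above the all-gene median. With TMM scaling 16 genes were called higher, all among the 37, and 1 lower (tapbpl), beside 5.31% and 3.18% of all genes. With mitochondrial reads taken out of the totals 21 were higher and 0 lower, beside 6.29% and 1.77%. edgeR called 13 higher and 1 lower, beside 4.52% and 3.34%, and DESeq2 21 higher and 2 lower, beside 7.26% and 7.14%. Without the pair of oocyte-rich libraries, wild type uninjured 1 and mutant 1 wpi 1, the count was 15, all higher, of which 13 were among the 37, beside 5.6% of all genes called higher. Leaving out 1 library at a time gave 9 genes without wild type 1 wpi 1 (4.19% of all genes called higher), 12 without mutant 1 wpi 2 (3.81%) and 13 without mutant 1 wpi 1 (4.46%). It gave 19 without wild type 1 wpi 3 (4.01%) and 19 without mutant uninjured 1 (5.24%). It gave 42 without wild type uninjured 1 (11.7%), 44 without mutant uninjured 2 (14.7%), and 46 higher and 1 lower without wild type uninjured 2 (25.8% and 3.48%).

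The level itself separated injured from uninjured cord for most of these genes. In 50 of the 75, all 4 injured libraries lay above all 4 uninjured ones, and in 0 they lay below; among all genes tested the shares were 21.3% and 2.44%. The constitutive 20S and 19S subunits did so in 28 of 35 cases. Summed over those 35 genes, CPM were 4653 and 4309 in injured mutants, 2143 and 2990.5 in uninjured mutants, 5019 and 4525 in injured wild type, and 2801 and 3040 in uninjured wild type. Injured libraries thus stood clear of uninjured ones in both genotypes, and the uninjured mutant libraries were the furthest apart. In bulk tissue a change in the number of cells of a type and a change in the RNA per cell cannot be told apart.

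**Figure D1:**
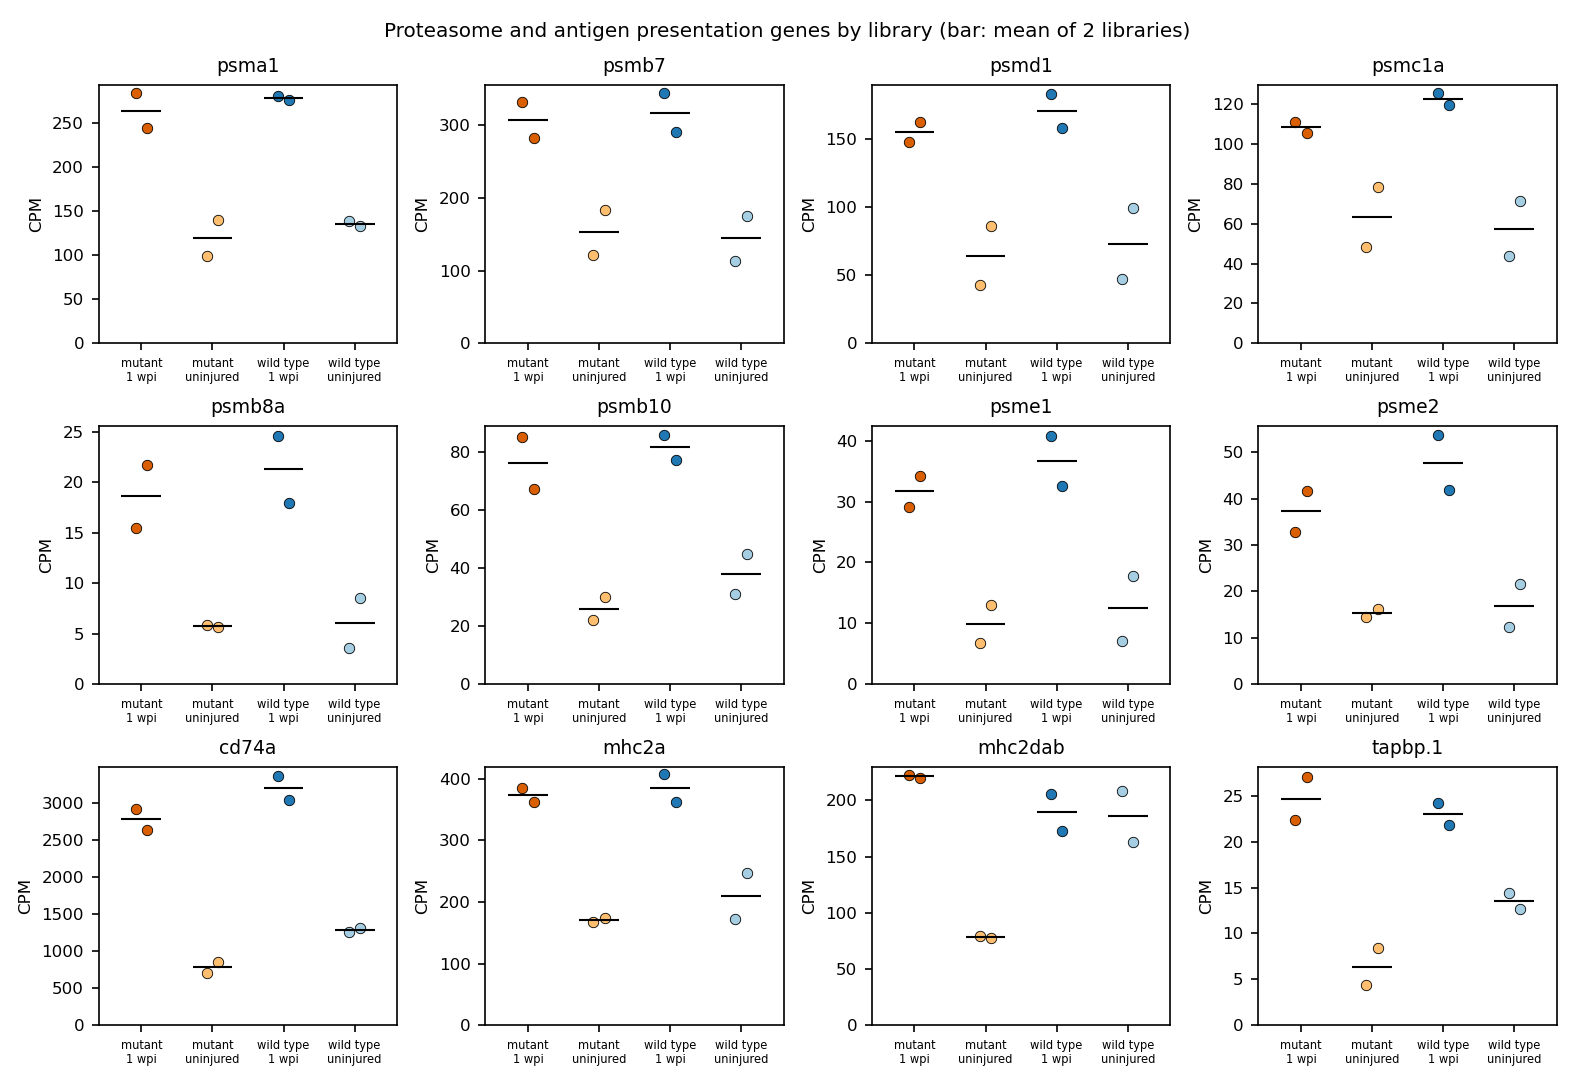
CPM of 12 genes in each of the 8 libraries (points; the bar is the mean of the 2 libraries of a group; each panel has its own axis from 0). In 11 panels every injured library lies above every uninjured one; in the mhc2dab panel only the uninjured mutants, at 79.5 and 77.7 CPM, lie apart from the rest.

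Of the 20S alpha ring, the outer gate of the core, 4 of 9 subunits rose, with a median relative change of 0.32 over the 9. psma1 was at 284 and 244 CPM in injured mutants, 98.8 and 140.1 CPM in uninjured mutants, 280.4 and 276 CPM in injured wild type and 139 and 133 CPM in uninjured wild type. All injured libraries stood above all uninjured ones, with a relative change of 0.78 ± 0.19, adjusted p = 0.00364 in limma. psma6l, a relative of psma6a with few reads, was at 10.6 and 15.9 CPM in injured mutants, 3.98 and 4.07 CPM in uninjured mutants, 18.1 and 15.8 CPM in injured wild type and 6.02 and 6.46 CPM in uninjured wild type. Its injured libraries were again all higher (1.08 ± 0.26, adjusted p = 0.00536). psma4 (0.59 ± 0.19, adjusted p = 0.01) and psma8 (0.41 ± 0.19, adjusted p = 0.0298) also rose, but of the 4 only psma1 and psma6l passed with TMM scaling (adjusted p = 0.0274 and 0.0224). psma4 was at 207 and 191 CPM in injured mutants, 84.0 and 112 CPM in uninjured mutants, 229 and 186 CPM in injured wild type and 119.8 and 121 CPM in uninjured wild type. psma8 was at 122 and 120.0 CPM in injured mutants, 61.6 and 87.4 CPM in uninjured mutants, 135 and 131 CPM in injured wild type and 78.1 and 79.9 CPM in uninjured wild type. In both genes the lowest injured library was above the highest uninjured one. psma3, the alpha subunit with the most reads, was at 279 and 257 CPM in injured mutants, 152 and 184 CPM in uninjured mutants, 368 and 256 CPM in injured wild type and 214 and 248 CPM in uninjured wild type. It was highest in 1 injured wild-type library and did not pass (0.23 ± 0.19, adjusted p = 0.0914). The smallest relative change in the ring was that of psma6a, which had 77.2 and 62.3 CPM in injured mutants, 45.3 and 53.2 CPM in uninjured mutants, 88.8 and 73.6 CPM in injured wild type and 75.4 and 57.1 CPM in uninjured wild type, with overlap between injured and uninjured wild type (0.08 ± 0.20, adjusted p = 0.235).

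Of the constitutive beta ring 4 of 7 subunits rose, with a median relative change of 0.60. psmb7, the trypsin-like cutting subunit, was at 332 and 283 CPM in injured mutants, 121 and 184 CPM in uninjured mutants, 345 and 291 CPM in injured wild type and 114 and 176 CPM in uninjured wild type. Every injured library held at least 283 CPM and every uninjured one at most 184 CPM, and the relative change was 0.78 ± 0.22, adjusted p = 0.00744 in limma. psmb5, the chymotrypsin-like cutting subunit, had 58.7 and 29.6 CPM in injured mutants, 27.1 and 39.5 CPM in uninjured mutants, 62.1 and 53.6 CPM in injured wild type and 48.4 and 48.6 CPM in uninjured wild type. Here the groups overlapped, injured mutant 2 being among the lowest, and the gene did not pass (-0.02 ± 0.25, adjusted p = 0.471). psmb6, the caspase-like cutting subunit, did not pass either (0.31 ± 0.20, adjusted p = 0.0577), although its injured libraries, at 187 to 228 CPM, were all above its uninjured ones, at 119 to 163 CPM. The other subunits that rose do not cut. psmb1 was at 204 and 185 CPM in injured mutants, 80.7 and 107 CPM in uninjured mutants, 225 and 194 CPM in injured wild type and 102 and 111 CPM in uninjured wild type. psmb2 was at 102 and 97.1 CPM in injured mutants, 37.1 and 61.2 CPM in uninjured mutants, 103 and 101.1 CPM in injured wild type and 64.3 and 54.4 CPM in uninjured wild type. psmb3 was at 150.03 and 134 CPM in injured mutants, 55.9 and 75.5 CPM in uninjured mutants, 150.1 and 138 CPM in injured wild type and 80.2 and 71.8 CPM in uninjured wild type. In all 3 the injured libraries were clear of the uninjured ones, with relative changes of 0.70 ± 0.19, 0.60 ± 0.21 and 0.70 ± 0.19 (adjusted p = 0.00523, 0.0166 and 0.00568, limma). psmb1, psmb3 and psmb7 passed with TMM scaling as well.

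The 19S base carries 6 kinds of ATPase that unfold the substrate, and 6 of the 7 genes for them rose, with a median relative change of 0.48. psmc1a had the largest change and was at 111 and 106 CPM in injured mutants, 48.5 and 78.4 CPM in uninjured mutants, 126 and 119.7 CPM in injured wild type and 43.9 and 71.3 CPM in uninjured wild type. psmc4, with the most reads, was at 218 and 201 CPM in injured mutants, 86.9 and 142 CPM in uninjured mutants, 196 and 196 CPM in injured wild type and 121 and 124 CPM in uninjured wild type. Injured libraries were all above uninjured ones in both, with relative changes of 0.65 ± 0.23, adjusted p = 0.019 for psmc1a and 0.48 ± 0.20, adjusted p = 0.0257 for psmc4. psmc6 was at 103 and 104 CPM in injured mutants, 36.9 and 66.2 CPM in uninjured mutants, 110.4 and 92.0 CPM in injured wild type and 42.7 and 76.9 CPM in uninjured wild type. psmc2 was at 96.1 and 109 CPM in injured mutants, 41.3 and 75.5 CPM in uninjured mutants, 119 and 97.5 CPM in injured wild type and 48.7 and 68.5 CPM in uninjured wild type. psmc3 was at 94.2 and 99.1 CPM in injured mutants, 46.1 and 71.0 CPM in uninjured mutants, 93.4 and 104 CPM in injured wild type and 50.3 and 69.7 CPM in uninjured wild type. In psmc6, psmc2 and psmc3 the lower library of each uninjured pair was mutant uninjured 1 and wild type uninjured 1. psmc1b, a second copy of the psmc1 gene, was at 87.6 and 74.3 CPM in injured mutants, 44.2 and 53.2 CPM in uninjured mutants, 97.0 and 79.2 CPM in injured wild type and 54.7 and 58.2 CPM in uninjured wild type. Relative changes were 0.61 ± 0.25, adjusted p = 0.0338 for psmc6, 0.56 ± 0.24, adjusted p = 0.0326 for psmc2, 0.42 ± 0.21, adjusted p = 0.0445 for psmc3 and 0.36 ± 0.20, adjusted p = 0.0435 for psmc1b in limma. psmc5, the exception, was at 121 and 128 CPM in injured mutants, 76.4 and 109.9 CPM in uninjured mutants, 144 and 124 CPM in injured wild type and 90.5 and 112 CPM in uninjured wild type. It had a relative change of 0.11 ± 0.20, adjusted p = 0.193, although its injured libraries, at 121 CPM or more, were all above its uninjured ones. None of the 7 ATPase genes passed with TMM scaling, where adjusted p ran between 0.0525 (psmc1a) and 0.919 (psmc5).

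Of the other cap subunits 6 of 12 rose, with a median relative change of 0.36. psmd1, a large scaffold of the base, was at 148 and 162 CPM in injured mutants, 42.6 and 85.9 CPM in uninjured mutants, 183 and 157 CPM in injured wild type and 46.9 and 99.2 CPM in uninjured wild type. It was highest in injured cord throughout and had the largest relative change of the cap (1.01 ± 0.28, adjusted p = 0.0101). psmd14, the lid enzyme that takes ubiquitin chains off the substrate, was at 102 and 95.5 CPM in injured mutants, 42.3 and 58.3 CPM in uninjured mutants, 117 and 98.6 CPM in injured wild type and 54.8 and 55.3 CPM in uninjured wild type. psmd7, the partner of psmd14 in the lid, was at 49.0 and 47.8 CPM in injured mutants, 16.2 and 29.7 CPM in uninjured mutants, 52.3 and 47.2 CPM in injured wild type and 19.01 and 27.4 CPM in uninjured wild type. Both were higher in each injured library than in any uninjured one, at 0.65 ± 0.20, adjusted p = 0.00867 for psmd14 and 0.78 ± 0.24, adjusted p = 0.0138 for psmd7. psmd3, a lid subunit with the most reads of the cap genes outside the ATPases, was at 259.5 and 253 CPM in injured mutants, 99.8 and 176 CPM in uninjured mutants, 257 and 247 CPM in injured wild type and 128 and 170.5 CPM in uninjured wild type. psmd12 was at 84.5 and 69.8 CPM in injured mutants, 36.1 and 54.2 CPM in uninjured mutants, 92.4 and 84.3 CPM in injured wild type and 63.4 and 50.1 CPM in uninjured wild type. psmd13 was at 89.7 and 89.4 CPM in injured mutants, 47.4 and 66.5 CPM in uninjured mutants, 105 and 95.5 CPM in injured wild type and 64.0 and 59.7 CPM in uninjured wild type. These 3 lid subunits had relative changes of 0.54 ± 0.22, adjusted p = 0.0253, 0.40 ± 0.21, adjusted p = 0.0492 and 0.36 ± 0.20, adjusted p = 0.0441 (limma, in that order). With TMM scaling psmd1 (adjusted p = 0.0202) and psmd7 (adjusted p = 0.0273) remained. psmd6 lay at the low end with 159 and 128 CPM in injured mutants, 99.9 and 114 CPM in uninjured mutants, 134 and 149 CPM in injured wild type and 109.8 and 130.5 CPM in uninjured wild type. Its injured and uninjured libraries overlapped, and the relative change was 0.01 ± 0.19, adjusted p = 0.279. The genes for the ubiquitin receptor, psmd4a and psmd4b, did not pass, with relative changes of 0.14 ± 0.26 and 0.29 ± 0.21 (adjusted p = 0.277 and 0.0799, limma).

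**Figure D2:**
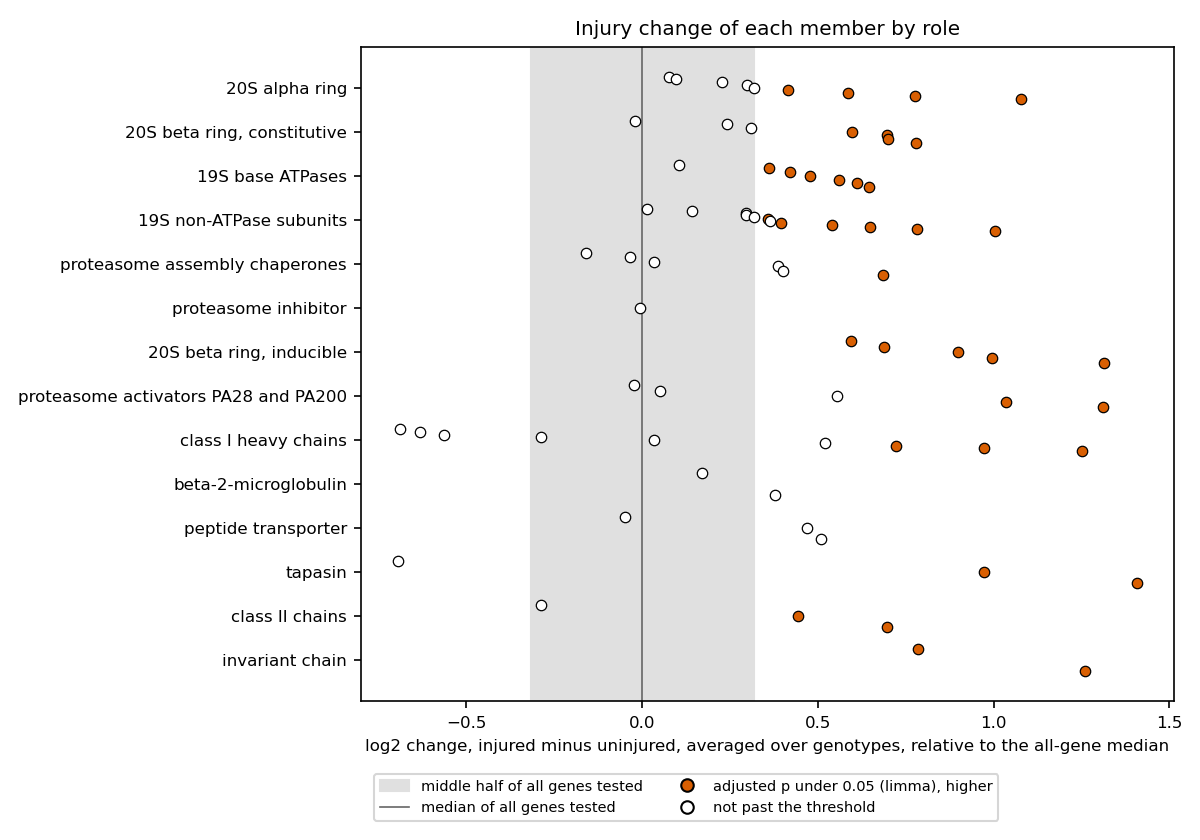
Log2 change with injury (injured minus uninjured, averaged over genotypes, relative to the all-gene median) of the 74 tested genes with a role in either machinery, 1 point per gene, by role. Filled points passed an adjusted p of 0.05 in limma and all lie right of the all-gene median; inducible beta subunits, PA28 and tapasins reach furthest right, up to 1.41, and class I heavy chains spread between -0.69 and 1.25.

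Of the chaperones that help the particle assemble, 1 of 6 rose, near the 11% of all genes tested that were called higher. The median relative change of the 6 was 0.21. psmd5, which holds the base ATPases during assembly, was at 17.8 and 27.0 CPM in injured mutants, 7.60 and 12.2 CPM in uninjured mutants, 18.2 and 21.3 CPM in injured wild type and 8.30 and 12.3 CPM in uninjured wild type. It was higher in every injured library (0.69 ± 0.27, adjusted p = 0.0327) but did not pass with TMM scaling (adjusted p = 0.0779). psmg1, a chaperone of the alpha ring, was at 84.8 and 79.0 CPM in injured mutants, 32.5 and 55.9 CPM in uninjured mutants, 97.7 and 77.7 CPM in injured wild type and 55.0 and 70.5 CPM in uninjured wild type. psmg2, which works as a pair with psmg1, was at 32.6 and 39.3 CPM in injured mutants, 24.6 and 32.4 CPM in uninjured mutants, 37.1 and 33.4 CPM in injured wild type and 33.9 and 37.8 CPM in uninjured wild type. psmg1 was higher in every injured library and psmg2 overlapped, and neither passed (0.39 ± 0.23, adjusted p = 0.0644 for psmg1 and -0.16 ± 0.21, adjusted p = 0.665 for psmg2). psmf1, the gene of the proteasome inhibitor PI31, was at 47.2 and 50.8 CPM in injured mutants, 25.02 and 42.7 CPM in uninjured mutants, 41.5 and 45.1 CPM in injured wild type and 37.2 and 47.1 CPM in uninjured wild type. Its groups overlapped and its relative change was -0.01 ± 0.23, adjusted p = 0.402.

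All 5 inducible beta subunits rose, with a median relative change of 0.90, and in each the injured libraries were clear of the uninjured ones. psmb8a, the counterpart of psmb5, was at 15.5 and 21.7 CPM in injured mutants, 5.84 and 5.63 CPM in uninjured mutants, 24.5 and 17.9 CPM in injured wild type and 3.57 and 8.52 CPM in uninjured wild type. psmb10, the counterpart of psmb7, was at 85.1 and 67.3 CPM in injured mutants, 22.1 and 30.0 CPM in uninjured mutants, 85.9 and 77.2 CPM in injured wild type and 31.1 and 44.9 CPM in uninjured wild type. psmb9a, the counterpart of psmb6, was at 11.6 and 12.7 CPM in injured mutants, 3.50 and 5.83 CPM in uninjured mutants, 15.9 and 16.02 CPM in injured wild type and 10.6 and 10.2 CPM in uninjured wild type. The change was largest in psmb8a (1.32 ± 0.30, adjusted p = 0.00471), next in psmb10 (1.00 ± 0.22, adjusted p = 0.00299) and smallest in psmb9a (0.60 ± 0.26, adjusted p = 0.0395). psmb13a and psmb12 are further inducible-type subunits of fish that mammals lack. psmb13a was at 11.5 and 8.02 CPM in injured mutants, 3.17 and 2.27 CPM in uninjured mutants, 14.6 and 5.197 CPM in injured wild type and 4.24 and 4.28 CPM in uninjured wild type. psmb12 was at 11.8 and 15.2 CPM in injured mutants, 5.69 and 4.03 CPM in uninjured mutants, 18.8 and 11.5 CPM in injured wild type and 8.70 and 8.72 CPM in uninjured wild type. Relative changes were 0.90 ± 0.34, adjusted p = 0.0364 for psmb13a and 0.69 ± 0.27, adjusted p = 0.0337 for psmb12 in limma. With TMM scaling psmb8a (adjusted p = 0.0169) and psmb10 (adjusted p = 0.00975) remained. Summed over the 5, CPM were 135 and 125 in injured mutants, 40.3 and 47.8 in uninjured mutants, 159.8 and 128 in injured wild type, and 58.2 and 76.6 in uninjured wild type.

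Each inducible subunit can be set against the constitutive subunit whose place it takes, as a ratio of CPM within a library. The scaling of the library cancels in such a ratio, but the length of the transcripts does not, so only its change is read. psmb8a over psmb5 was 0.264 and 0.733 in injured mutants, 0.215 and 0.142 in uninjured mutants, 0.395 and 0.335 in injured wild type, and 0.0738 and 0.175 in uninjured wild type. All injured libraries were above all uninjured ones, and the mean log2 ratio was 1.503 higher in injured cord. Over 4 injured and 4 uninjured libraries the exact two-sided permutation p was 0.0286, the smallest this test can give, and 0.0857 after adjustment over 3 ratios. The highest of these ratios, in injured mutant 2, stood where psmb5 was at 29.6 CPM, its lowest in injured cord. psmb9a over psmb6 was 0.0506 and 0.068 in injured mutants, 0.0294 and 0.0358 in uninjured mutants, 0.0708 and 0.0706 in injured wild type, and 0.067 and 0.0817 in uninjured wild type. psmb10 over psmb7 was 0.256 and 0.238 in injured mutants, 0.182 and 0.163 in uninjured mutants, 0.249 and 0.266 in injured wild type, and 0.273 and 0.256 in uninjured wild type. Both ratios were lowest in uninjured mutants and overlapped in the wild type, and the injured minus uninjured differences were 0.39 and 0.24 on the log2 scale (exact permutation p = 0.343 and 0.371, both 0.371 after adjustment). All 3 permutation tests shuffled the libraries without regard to genotype.

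Of the 5 activator genes tested, 2 rose, where 11% of all genes tested were called higher. psme1, the alpha subunit of PA28, was at 29.1 and 34.2 CPM in injured mutants, 6.70 and 12.97 CPM in uninjured mutants, 40.8 and 32.6 CPM in injured wild type and 7.09 and 17.8 CPM in uninjured wild type. psme2, its beta subunit, was at 32.8 and 41.8 CPM in injured mutants, 14.5 and 16.2 CPM in uninjured mutants, 53.7 and 41.9 CPM in injured wild type and 12.3 and 21.7 CPM in uninjured wild type. Both were higher in every injured library than in any uninjured one and passed in limma (1.31 ± 0.31, adjusted p = 0.00594 for psme1; 1.04 ± 0.25, adjusted p = 0.00459 for psme2) and with TMM scaling (adjusted p = 0.011 and 0.0176). psme3 makes the nuclear form of PA28, which in mammals is not tied to antigen presentation, and was at 28.4 and 24.9 CPM in injured mutants, 14.5 and 23.7 CPM in uninjured mutants, 26.4 and 26.2 CPM in injured wild type and 19.7 and 24.9 CPM in uninjured wild type. psme4a and psme4b make the activator PA200; psme4a was at 6.49 and 8.15 CPM in injured mutants, 3.80 and 6.15 CPM in uninjured mutants, 7.32 and 8.81 CPM in injured wild type and 7.67 and 7.36 CPM in uninjured wild type. psme4b was at 31.4 and 30.7 CPM in injured mutants, 13.6 and 29.1 CPM in uninjured mutants, 33.9 and 42.0 CPM in injured wild type and 11.9 and 23.3 CPM in uninjured wild type. None of these 3 passed: the relative change was 0.05 ± 0.24, adjusted p = 0.337 for psme3, -0.02 ± 0.28, adjusted p = 0.516 for psme4a and 0.56 ± 0.29, adjusted p = 0.0735 for psme4b, and psme3 and psme4a overlapped between injured and uninjured cord.

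**Figure D3:**
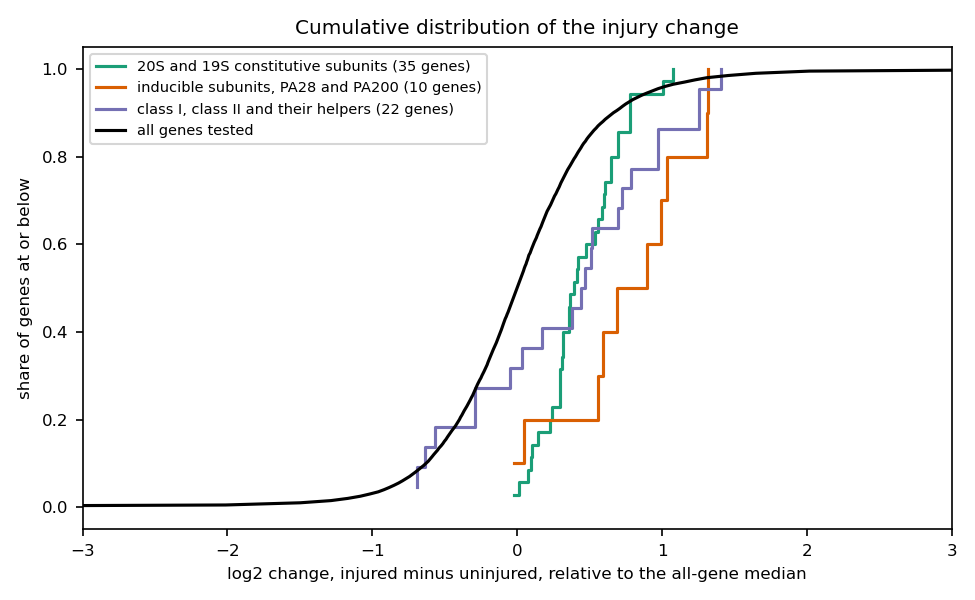
Share of genes (vertical axis) whose log2 change with injury, averaged over genotypes and relative to the all-gene median, is at or below the value on the horizontal axis. The curve of the 35 constitutive 20S and 19S subunits is narrow and lies right of the curve of all genes over most of its length. That of the 10 inducible subunits and activators starts in the same range, with psme4a at -0.02 and psme3 at 0.05, and lies further right above them. That of the 22 class I and class II genes and helpers is wide, between -0.69 and 1.41.

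Class I heavy chains did not move together. Zebrafish carry several lineages of them, of which the U lineage is the classical one and the Z and L lineages are others. The median relative change of the 9 tested was 0.03. mhc1uka, of the U lineage, was at 13.5 and 14.1 CPM in injured mutants, 3.62 and 5.87 CPM in uninjured mutants, 17.1 and 14.2 CPM in injured wild type and 3.79 and 10.2 CPM in uninjured wild type. mhc1zfa was at 9.36 and 9.08 CPM in injured mutants, 1.80 and 2.75 CPM in uninjured mutants, 16.2 and 10.7 CPM in injured wild type and 2.54 and 6.34 CPM in uninjured wild type. mhc1laa was at 6.71 and 8.81 CPM in injured mutants, 1.83 and 3.39 CPM in uninjured mutants, 7.07 and 4.91 CPM in injured wild type and 2.94 and 3.17 CPM in uninjured wild type. These 3 rose, with injured libraries clear of uninjured ones (0.97 ± 0.32, adjusted p = 0.022 for mhc1uka; 1.25 ± 0.32, adjusted p = 0.00825 for mhc1zfa; 0.72 ± 0.30, adjusted p = 0.0407 for mhc1laa), and mhc1uka and mhc1zfa passed with TMM scaling. mhc1zba, the heavy chain with most reads, was at 452 and 465 CPM in injured mutants, 274 and 292 CPM in uninjured mutants, 551 and 417 CPM in injured wild type and 478 and 479.6 CPM in uninjured wild type. It was low in uninjured mutants and overlapped in wild type (0.03 ± 0.18, adjusted p = 0.232). mhc1zda was at 39.5 and 34.5 CPM in injured mutants, 29.7 and 48.1 CPM in uninjured mutants, 36.7 and 28.6 CPM in injured wild type and 36.9 and 66.7 CPM in uninjured wild type. mhc1zea was at 9.64 and 16.3 CPM in injured mutants, 4.64 and 7.78 CPM in uninjured mutants, 12.7 and 15.6 CPM in injured wild type and 12.1 and 5.35 CPM in uninjured wild type. The groups overlapped in both, with relative changes of -0.63 ± 0.26, adjusted p = 0.441 for mhc1zda and 0.52 ± 0.32, adjusted p = 0.112 for mhc1zea in limma, and DESeq2 called mhc1zda lower. The remaining 3 were near the limit of the test: mhc1zaa stayed between 0.928 and 2.42 CPM, mhc1zja between 0.385 and 1.52 CPM and mhc1zca between 0.15 and 5.35 CPM over the 8 libraries. The value of 5.35 CPM came from wild type uninjured 1 alone.

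The partners of class I divided likewise. b2m, beta-2-microglobulin, was at 452 and 481 CPM in injured mutants, 218 and 220.2 CPM in uninjured mutants, 593 and 501 CPM in injured wild type and 681 and 289 CPM in uninjured wild type. b2ml, its second copy, was at 434 and 487 CPM in injured mutants, 238 and 322 CPM in uninjured mutants, 486 and 495 CPM in injured wild type and 428 and 403 CPM in uninjured wild type. Both were lowest in uninjured mutants, b2m was highest in 1 uninjured wild-type library, and neither passed (0.38 ± 0.25, adjusted p = 0.0927 for b2m; 0.17 ± 0.18, adjusted p = 0.106 for b2ml). tap1, 1 side of the peptide transporter, was at 7.44 and 10.8 CPM in injured mutants, 4.67 and 6.46 CPM in uninjured mutants, 8.66 and 6.83 CPM in injured wild type and 9.77 and 6.87 CPM in uninjured wild type. Genes for its other side were tap2a and tap2t; tap2a was at 5.53 and 4.54 CPM in injured mutants, 1.71 and 2.31 CPM in uninjured mutants, 4.93 and 2.84 CPM in injured wild type and 2.01 and 2.47 CPM in uninjured wild type. tap2t was at 5.53 and 5.07 CPM in injured mutants, 1.95 and 4.71 CPM in uninjured mutants, 7.67 and 6.98 CPM in injured wild type and 2.99 and 3.17 CPM in uninjured wild type. tap1 overlapped, tap2a and tap2t did not, and none passed (-0.05 ± 0.28, adjusted p = 0.564 for tap1; 0.47 ± 0.29, adjusted p = 0.105 for tap2a; 0.51 ± 0.30, adjusted p = 0.0997 for tap2t). tapbp.1, a tapasin that bridges TAP and class I, was at 22.3 and 27.1 CPM in injured mutants, 4.37 and 8.42 CPM in uninjured mutants, 24.2 and 21.8 CPM in injured wild type and 14.4 and 12.6 CPM in uninjured wild type. tapbp.2, another, was at 15.7 and 16.04 CPM in injured mutants, 2.18 and 4.63 CPM in uninjured mutants, 16.6 and 12.6 CPM in injured wild type and 2.097 and 9.38 CPM in uninjured wild type. Both rose in limma (0.97 ± 0.26, adjusted p = 0.00783 for tapbp.1; 1.41 ± 0.38, adjusted p = 0.0129 for tapbp.2) and with TMM scaling (adjusted p = 0.0212 and 0.0277). tapbpl, the tapasin-like TAPBPR that edits peptides away from TAP in mammals, was at 23.8 and 32.4 CPM in injured mutants, 22.9 and 34.7 CPM in uninjured mutants, 20.5 and 27.3 CPM in injured wild type and 42.6 and 37.7 CPM in uninjured wild type. In wild type its injured libraries lay below its uninjured ones, and in mutants they overlapped. Its relative change was -0.69 ± 0.24, adjusted p = 0.319, and it was called lower with TMM scaling (adjusted p = 0.0345), by edgeR and by DESeq2.

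Among class II genes the invariant chain rose most. cd74a was at 2925 and 2633 CPM in injured mutants, 706 and 856 CPM in uninjured mutants, 3359.8 and 3034 CPM in injured wild type and 1253 and 1317 CPM in uninjured wild type. Injured libraries held at least 2633 CPM and uninjured ones at most 1317 CPM, and cd74a had the smallest adjusted p of all members (1.26 ± 0.18, adjusted p = 0.000381; adjusted p = 0.0105 with TMM scaling). cd74b was at 459 and 476 CPM in injured mutants, 159.8 and 169.8 CPM in uninjured mutants, 503 and 504 CPM in injured wild type and 432 and 222 CPM in uninjured wild type. It was also higher in each injured library (0.78 ± 0.22, adjusted p = 0.00768), with 1 uninjured wild-type library close behind, and did not pass with TMM scaling (adjusted p = 0.132). mhc2a, a class II alpha chain gene, was at 384 and 362 CPM in injured mutants, 167 and 174 CPM in uninjured mutants, 408 and 362 CPM in injured wild type and 172 and 246 CPM in uninjured wild type. It rose in limma (0.70 ± 0.19, adjusted p = 0.00521) and was short of the threshold with TMM scaling (adjusted p = 0.0626). mhc2dab, also class II, was at 223 and 219.8 CPM in injured mutants, 79.5 and 77.7 CPM in uninjured mutants, 206 and 173 CPM in injured wild type and 208 and 163 CPM in uninjured wild type. Wild-type libraries overlapped between injured and uninjured cord, so its averaged call (0.44 ± 0.18, adjusted p = 0.0209) came from the mutants. mhc2bl, with few reads, was at 3.56 and 3.17 CPM in injured mutants, 2.60 and 3.67 CPM in uninjured mutants, 3.78 and 5.53 CPM in injured wild type and 2.94 and 7.32 CPM in uninjured wild type. It overlapped and did not pass (-0.29 ± 0.32, adjusted p = 0.968).

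Taken by genotype, with 2 libraries against 2, fewer genes passed. In mutants 8 of 75 were called higher with injury and 0 lower by limma (10.7%), beside 2.94% and 0.251% of all genes. They were cd74a (1.47 ± 0.26), tapbp.1 (1.48 ± 0.37), psmb10 (1.15 ± 0.31), cd74b (1.13 ± 0.31), mhc2dab (1.12 ± 0.26), psma1 (0.79 ± 0.27), mhc2a (0.76 ± 0.27) and psmb3 (0.75 ± 0.27), as relative changes. In wild type 3 were called higher and 0 lower (4.0%), beside 2.9% and 0.952% of all genes, a share near the background: psmb8a (1.45 ± 0.42, adjusted p = 0.0418), psme2 (1.19 ± 0.35, adjusted p = 0.036) and cd74a (1.03 ± 0.26, adjusted p = 0.018). Scaling and tool changed both counts. In mutants TMM left tapbp.1 alone (0.968% of all genes higher and 0.324% lower), and taking out mitochondrial reads left 3 higher (1.3% and 0.283%). edgeR called 0 in mutants (0.691% and 0.199%) and DESeq2 6 higher (2.96% and 1.69%). In wild type TMM left 0 (2.12% of all genes higher and 1.26% lower), and taking out mitochondrial reads left 1 higher (1.98% and 1%). edgeR called 0 in wild type (1.5% and 1.16%), and DESeq2 7 higher and 2 lower (4.09% and 4.84%). At an unadjusted limma p under 0.05 there were 49 genes in mutants, all higher (17.4% of all genes in either direction), and 36 in wild type, 1 of them lower (19.4% of all genes). Without the pair of oocyte-rich libraries the counts were 3 in mutants (1.47% of all genes higher) and 0 in wild type (1.14%). Leaving out 1 library at a time, the mutant count was 0 without mutant 1 wpi 1, mutant 1 wpi 2 or mutant uninjured 1 (0.272%, 0.387% and 0.293% of all genes higher), and 11 without mutant uninjured 2 (2.36%). It was 2 without wild type 1 wpi 1 or 3 (1.16% and 1.18%), and 28 without wild type uninjured 1 or 2 (8.22% and 8.36%). The wild-type count was 0 without wild type 1 wpi 1 or 3 (0.251% and 0.246%) and without mutant 1 wpi 1 or 2 (1.42% each). It was 2 without wild type uninjured 1 (2.49%), 5 without mutant uninjured 1 or 2 (3.05% each), and 23 higher and 1 lower without wild type uninjured 2 (16% and 4.37%).

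The injury changes can be set side by side over the 75 genes, since the 2 genotypes share no library in these comparisons. The median relative change was 0.44 in mutants and 0.39 in wild type, and 55 of 75 genes (73.3%) were above the all-gene median in both, as were 34.6% of all genes tested. Across the 75 genes the changes in mutants and in wild type had a Pearson r of 0.75, against 0.37 across all genes, as a description only, since genes are not independent. Both injured libraries lay above both uninjured ones for 66 of 75 genes in mutants (45.3% of all genes) and for 57 in wild type (36.7% of all genes). The reverse order held for 0 in mutants (7.48% of all genes) and for 4 in wild type (13% of all genes).

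No gene passed the test of the genotype by injury interaction, the injury change of mutants minus that of wild type. limma, edgeR and DESeq2 each called 0 of 75, beside 0.56% higher and 0.00523% lower among all genes in limma, 0% in edgeR, and 1.12% and 0.0419% in DESeq2, and 1 of the 75 had an unadjusted p under 0.05, beside 3.24% of all genes. That gene was mhc2dab, with an interaction of 1.45 ± 0.37 as measured in CPM (log2, all-gene median 0.09, 95% interval 0.65 to 2.25, adjusted p = 0.236 in limma). Its values given above show the shape: 3 groups lay between 163 and 223 CPM, and uninjured mutants at 79.5 and 77.7 CPM. The interval of every other gene included 0, and for cd74a it ran between -0.28 and 1.33. Without wild type uninjured 2, which leaves 1 library in that group, the interaction was 1.62 for mhc2dab and 1.41 for b2m. These genes are named because that fit itself picked them out. The library left, wild type uninjured 1, held 681 CPM of b2m, and the one left out 289 CPM.

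In uninjured cord 65 of the 75 genes (86.7%) lay below the all-gene median in mutants relative to wild type, and no single gene passed in limma's fit of 4 group means. limma called 0 of 75 in uninjured mutants against uninjured wild type, as it did among all genes (0% higher and 0% lower), and edgeR (0% of all genes) and DESeq2 (0.133% higher and 0.309% lower) also called 0. At an unadjusted p under 0.05 there were 8, all lower, where 4.46% of all genes passed and 3.23% were lower. They were mhc2dab, mhc1zba, cd74b, b2m, psmb9a, tapbp.1, cd74a and b2ml, of which none is a constitutive proteasome subunit. As measured in CPM, where the all-gene median was -0.06, the change was -1.22 ± 0.26 for mhc2dab (log2, adjusted p = 0.421 in limma), -1.04 ± 0.36 for psmb9a, -1.03 ± 0.37 for tapbp.1 and -1.02 ± 0.35 for b2m (adjusted p = 0.969, 0.969 and 0.96). In all 8 both mutant libraries lay below both wild-type libraries. b2m was at 218 and 220.2 CPM in uninjured mutants, against 681 and 289 CPM in uninjured wild type, whose libraries stood far apart. The library with the higher b2m, wild type uninjured 1, also had the higher cd74b (432 against 222 CPM in its partner) and stood apart in liver markers, at 6124 CPM where the other libraries had 24.1 to 477 CPM. What these have to do with each other was not tested. Relative to the all-gene median the 75 genes had a median change of -0.19. Both mutant libraries were below both wild-type ones for 23 genes (15.7% of all genes) and above for 0 (7.42% of all genes). Without wild type uninjured 2, uninjured wild type rested on wild type uninjured 1 alone. As measured in CPM the change was then -1.40 for mhc2dab, -1.63 for b2m, -1.39 for cd74b and -1.999 for mhc1zca. Here too the genes named are those picked out by the fit without that library. For mhc1zca, wild type uninjured 1 held 5.35 CPM and the library left out 0.329 CPM.

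At 1 wpi no gene differed between the genotypes beyond the test's threshold. limma, edgeR and DESeq2 called 0 of 75 genes, beside 0.262% higher and 0.00523% lower among all genes in limma and 0.738% and 0.0366% in DESeq2, and 0 of the 75 had an unadjusted p under 0.05, beside 2.11% of all genes. The median relative change was -0.12, and 55 of 75 (73.3%) were below the all-gene median. Both mutant libraries were below both wild-type ones for 17 genes (15.6% of all genes) and above for 7 (20.1% of all genes). The smallest p belonged to psmb5, at -0.46 ± 0.36 as measured in CPM (log2, all-gene median 0.02, adjusted p = 1 in limma). mhc2dab, lower in mutants before injury, was at 223 and 219.9 CPM in injured mutants, against 206 and 173 CPM in injured wild type. The uninjured and the injury comparisons share their uninjured libraries, so a low value there enters both.

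**Figure D4:**
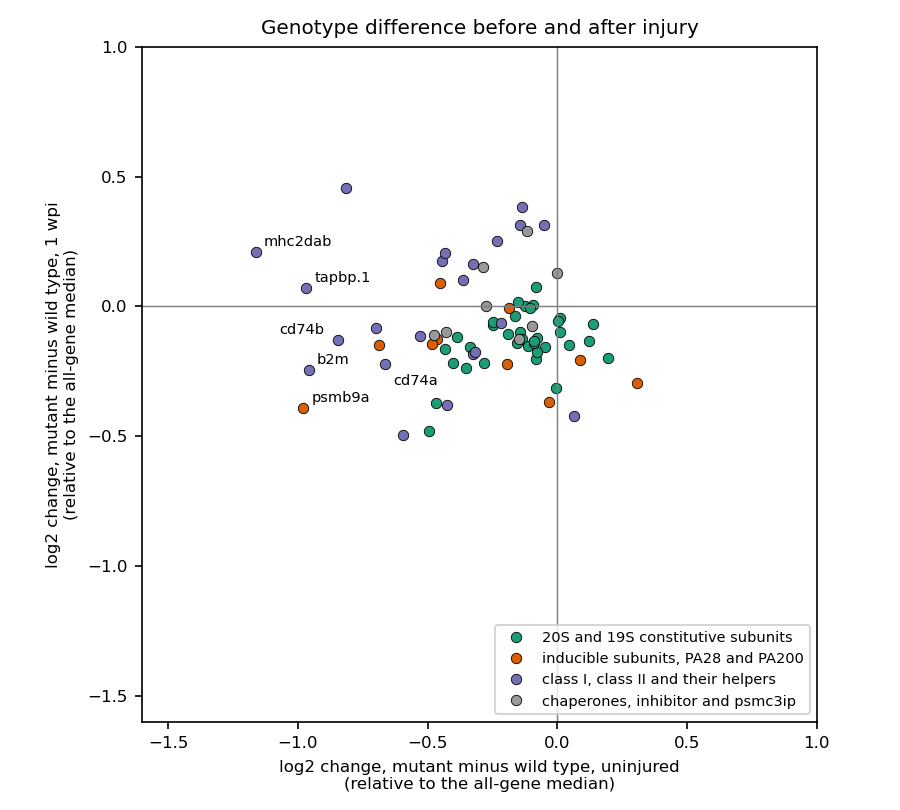
Log2 difference between mutant and wild type of each of the 75 genes in uninjured cord (horizontal axis) and at 1 wpi (vertical axis), both relative to the all-gene median, coloured by role. Most points lie left of 0 on the horizontal axis; mhc2dab lies furthest left at -1.16, and psmb9a, tapbp.1, b2m, cd74b and cd74a are also labelled; on the vertical axis the points lie between -0.49 and 0.46.

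In the RefSeq annotation of the zebrafish assembly GRCz12tu, 9 of the 80 genes form a single run with 0 other coding genes between them: tapbp.1, mhc1uka, tapbp.2, mhc1uba, psmb13a, psmb8a, psmb12, psmb9a and tap2a. This run, noticed after the values were seen and given without a test, covers part of the core class I region of the fish. Of its 8 tested genes 7 were called higher with injury, averaged over genotypes, with a median relative change of 0.94. Of the other 67 tested 30 were called, with a median of 0.38. Of all genes tested 11% were called higher in that comparison. psmb10, psme1, psme2 and cd74a, which changed by as much, lie outside the run. A separate run of mhc1zea, mhc1zda, mhc1zca and mhc1zba held 0 genes called, but has too few genes to tell this from 11%. Zebrafish differ from each other in which class I and inducible subunit genes this region carries, and copies can be near-identical. How reads were shared between such copies is not given in the sources used here, so the values of single mhc1, mhc2, tapbp and inducible psmb genes are uncertain.

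Markers of the immune cells that carry much of this machinery were measured in the same libraries. Macrophage and microglia markers other than apoeb (19 genes, none at 0 in all libraries) summed to 865 and 929 CPM in injured mutants, 253 and 284 CPM in uninjured mutants, 935 and 899 CPM in injured wild type, and 313 and 380.4 CPM in uninjured wild type. They were higher in every injured library, and 12 of 19 markers tested, apoeb among them, were called higher in the averaged comparison. Of all genes tested 11% were called higher there, the share to set beside each list here. The macrophage markers mpeg1.1, mfap4, csf1rb, ptprc, cybb, c1qa and c1qb were not called, with relative changes between 0.0011 (mfap4) and 0.64 (c1qb). Neutrophil markers (10 genes found) summed to 192 and 243 CPM in injured mutants, 108 and 75.5 CPM in uninjured mutants, 292 and 286 CPM in injured wild type, and 94.1 and 79.3 CPM in uninjured wild type, with mmp9 and mmp13b called higher of 9 tested. mmp9 alone was at 103 and 127 CPM in injured mutants, 5.54 and 5.59 CPM in uninjured mutants, 199 and 224 CPM in injured wild type and 20.4 and 6.75 CPM in uninjured wild type. Without it the neutrophil sums overlapped, at 62.3 to 117 CPM in injured and 69.9 to 103 CPM in uninjured libraries. T and NK cell markers (16 genes found) summed to 27.0 and 32.3 CPM in injured mutants, 22.4 and 48.1 CPM in uninjured mutants, 28.6 and 27.9 CPM in injured wild type, and 26.0 and 39.4 CPM in uninjured wild type, and 0 of 13 tested were called. B and plasma cell markers (9 found) summed to 634 and 618 CPM in injured mutants, 277 and 337 CPM in uninjured mutants, 528 and 597 CPM in injured wild type, and 438 and 322 CPM in uninjured wild type. Of 7 tested, blnk, prdm1a and xbp1 were called, and xbp1, which is also active in many other secretory cells, made up most of the sum. Without xbp1 the sums overlapped, at 24.0 to 36.6 CPM in injured and 19.1 to 31.8 CPM in uninjured libraries. In that list cd79a, ighv1-4, igic1s1 and cd37 had relative changes below 0 and were not called. Dendritic cell markers (7 found) summed to 131 and 126 CPM in injured mutants, 71.6 and 100.8 CPM in uninjured mutants, 109.5 and 128 CPM in injured wild type, and 142 and 88.6 CPM in uninjured wild type, and 0 of 5 tested were called. Skeletal muscle markers (24 genes) were in turn lower in injured cord, at 3643 and 3944 CPM in injured mutants, 15553 and 16183 CPM in uninjured mutants, 1681 and 2249.7 CPM in injured wild type, and 31286 and 8507 CPM in uninjured wild type. Erythrocyte markers (9 genes) summed to 753 and 762 CPM in injured mutants, 7641 and 5563 CPM in uninjured mutants, 807 and 1087 CPM in injured wild type, and 5328 and 1459.7 CPM in uninjured wild type. Spinal cord glia markers (13 genes) were lower in every injured library than in any uninjured one. Injured libraries held 62449 and 56454 CPM in mutants and 64476 and 60811 CPM in wild type. Uninjured libraries held 142768 and 99960 CPM in mutants and 97850 and 96596 CPM in wild type. Spinal cord neuron markers (12 genes) overlapped, at 8008 to 9564 CPM in injured and 3988 to 12194 CPM in uninjured libraries. The sums without mmp9 and without xbp1 were chosen after seeing the data. The part of these cell types in the change of the proteasome and antigen presentation genes was not tested.

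**Figure D5:**
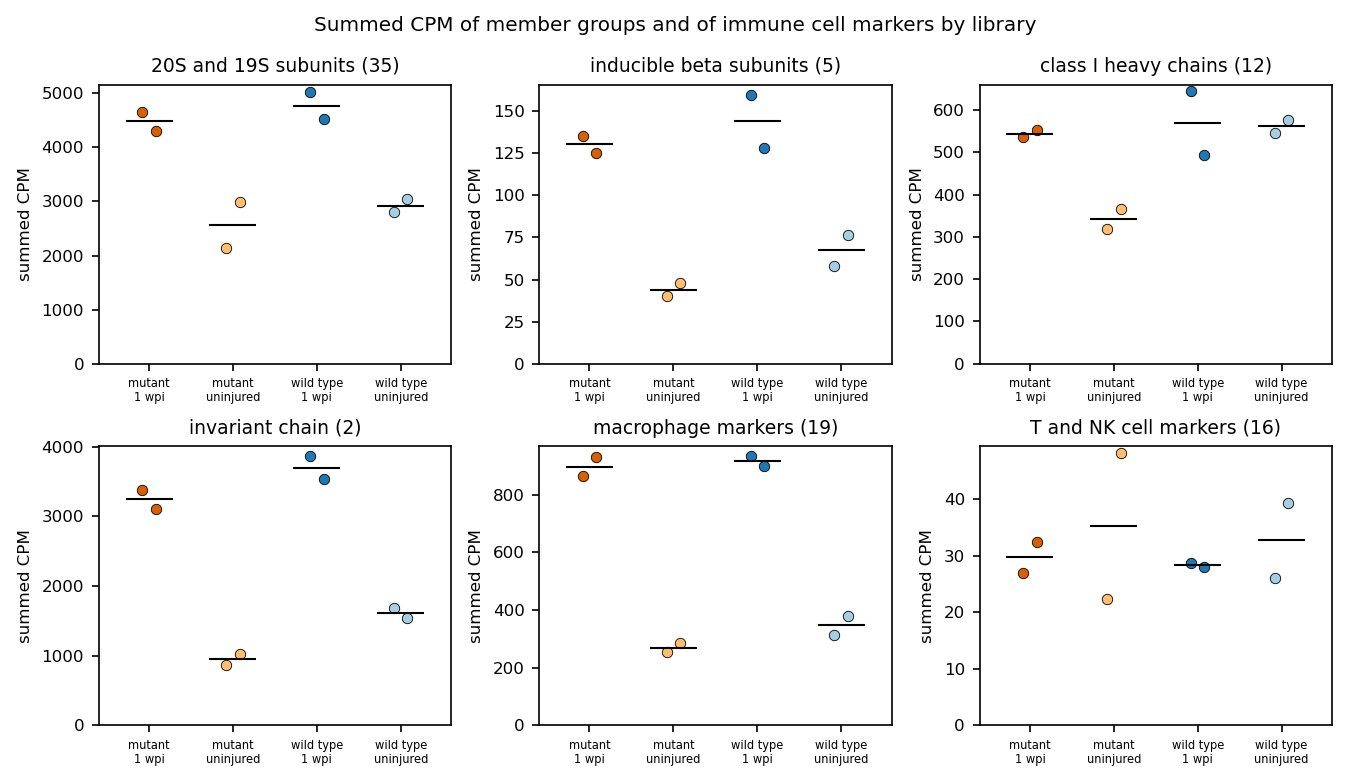
Summed CPM in each library (points; bars are means of 2 libraries) of 4 sets of the described genes and of 2 sets of immune cell markers, with the number of genes in brackets. Group means have the same order in the panels of the 20S and 19S subunits, inducible beta subunits, invariant chain and macrophage markers. Except for the invariant chain, injured libraries of the 2 genotypes overlap in these panels. Injured libraries lie at 3109 CPM or more for the invariant chain and at 865 CPM or more for the macrophage markers. T and NK cell markers overlap between all groups. Class I sums are low only in uninjured mutants, at 318 and 365 CPM, of which mhc1zba alone gives 274 and 292 CPM.

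Other genes of the same pathways were listed by function with earlier results of these data known. In the averaged injury comparison limma called 0 of them lower, beside 1.21% of all genes tested. The share of all genes tested that was called higher there was 11%. With TMM scaling rad23ab, foxo3a and ctss1 were called lower (adjusted p = 0.0317, 0.0104 and 0.0436), beside 3.18% of all genes tested. Of the factors that assemble, dock on or supply the proteasome 5 of 20 tested rose. zfand5a, a ubiquitin-binding activator of the proteasome in mammals, was at 49.0 and 59.4 CPM in injured mutants, 21.0 and 25.02 CPM in uninjured mutants, 47.6 and 50.1 CPM in injured wild type and 14.8 and 25.4 CPM in uninjured wild type. It and zfand5b were higher in every injured library than in any uninjured one (0.93 ± 0.23, adjusted p = 0.00533 for zfand5a; 0.66 ± 0.20, adjusted p = 0.00866 for zfand5b), and the other 3 were ecpas (1.25 ± 0.41), vcp (0.66 ± 0.28), an unfolding ATPase upstream of the cap, and adrm1 (0.62 ± 0.27), a ubiquitin receptor. Of the transcription factors known to drive proteasome genes and their regulators 3 of 10 rose. nfe2l1b, a copy of NRF1, the factor that raises proteasome subunit genes when the proteasome is short, had a relative change of 0.83 ± 0.32, adjusted p = 0.0395. It had few reads, with 3.38 and 2.60 CPM in injured mutants and 0.449 and 1.64 CPM in uninjured mutants. In wild type nfe2l1b was at 2.89 and 3.27 CPM with injury and at 0.268 and 1.28 CPM without. keap1a, which holds the related factor NRF2 in check, had the largest in these lists (1.97 ± 0.19, adjusted p = 4.11e-05). keap1a was at 109 and 103 CPM in injured mutants, 21.8 and 22.1 CPM in uninjured mutants, 128 and 111 CPM in injured wild type and 22.4 and 22.8 CPM in uninjured wild type. The third was foxo3b (0.93 ± 0.31, adjusted p = 0.0219). For the genes called higher in these lists, and among the class I loading and trimming genes below, results with TMM scaling are not given here.

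For each list below, the share of all genes tested that limma called higher in the same comparison was 11%. Of the interferon gamma pathway, the classical inducer of the inducible subunits and of PA28, 4 of 13 tested genes rose: jak1 (1.09 ± 0.24, adjusted p = 0.00368), socs3b (1.13 ± 0.25, adjusted p = 0.00321), ifngr1l (0.97 ± 0.33, adjusted p = 0.0259) and irf9 (0.75 ± 0.22, adjusted p = 0.00866). Of these, jak1 passed with TMM scaling (adjusted p = 0.0108). stat1a, which carries the signal to the nucleus, was at 97.5 and 116 CPM in injured mutants, 66.7 and 96.7 CPM in uninjured mutants, 127 and 119.8 CPM in injured wild type and 123 and 112 CPM in uninjured wild type and was not called. The ligand gene ifng1 stayed below 1 CPM in every library. Mean stat1b was 3.68 CPM in injured and 6.39 CPM in uninjured wild type, and 6.71 and 1.51 CPM in mutants. In the same order the means were 4.58, 5.10, 5.84 and 2.45 CPM for socs1a, and 1.42, 1.54, 1.54 and 0.798 CPM for irf1a. Of class I loading and trimming genes 5 of 14 rose: calr3a (0.82 ± 0.20, adjusted p = 0.00386), pdia3 (0.76 ± 0.18, adjusted p = 0.0033), lnpep (0.69 ± 0.20, adjusted p = 0.00752), canx (0.64 ± 0.22, adjusted p = 0.0156) and calr3b (0.54 ± 0.21, adjusted p = 0.0235), most of which also serve the folding of other proteins. Of class II loading and regulation 7 of 12 were called higher. They were the endosomal proteases and reductase ctsla (1.78 ± 0.18), ifi30 (1.27 ± 0.21), ctsba (1.07 ± 0.20), ctss2.1 (0.92 ± 0.35), ctss2.2 (0.61 ± 0.27) and lgmn (0.56 ± 0.21), and the receptor cd40 (1.17 ± 0.28). The call of ctss2.1 came from the mutants: it was at 178 and 66.7 CPM in injured mutants, 15.95 and 11.2 CPM in uninjured mutants, 25.6 and 27.5 CPM in injured wild type and 59.7 and 22.6 CPM in uninjured wild type. Its wild-type libraries overlapped between injured and uninjured cord. The values of 178 and 59.7 CPM came from mutant 1 wpi 1 and wild type uninjured 1, the oocyte-rich libraries. A link between the 2 was not tested. Of the 7, ctsla, ifi30, ctsba and cd40 passed with TMM scaling. ctss2.1 and ctss2.2 had an adjusted p of 0.242 and 0.274 there. ciita, the master regulator of class II genes, was at 4.25 and 3.44 CPM in injured mutants, 4.85 and 7.38 CPM in uninjured mutants, 6.12 and 7.17 CPM in injured wild type and 6.07 and 7.16 CPM in uninjured wild type. nlrc5, its class I counterpart, was at 2.92 and 6.78 CPM in injured mutants, 3.89 and 4.39 CPM in uninjured mutants, 4.28 and 6.30 CPM in injured wild type and 5.71 and 6.21 CPM in uninjured wild type. ciita was lowest in injured mutants, nlrc5 overlapped between all groups, and neither was called (relative change -0.58 ± 0.28, adjusted p = 0.563 for ciita and -0.34 ± 0.31, adjusted p = 0.963 for nlrc5 in limma).

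The authors' deposited table holds a test of its own over the same libraries and called more of the 80 genes than limma did. For injury in wild type the authors' deposited table has 38 higher and 7 lower at an adjusted p under 0.05, beside 17.6% and 17.6% of all entries. For uninjured mutants against uninjured wild type the authors' deposited table has 0 higher and 26 lower, beside 9.27% and 12.4%. Constitutive subunits are among the 26, such as psma2 (log2 -0.45), psma3 (-0.44) and psmd4b (-0.38). At 1 wpi the authors' deposited table has 0 higher and 3 lower, namely b2m (log2 -0.28, adjusted p = 0.007), psme2 (-0.40, adjusted p = 0.045) and cd74a (-0.25, adjusted p = 0.0477), beside 2.97% and 2.79%. For mhc2dab the authors' deposited table gives a log2 change of -1.20 in uninjured mutants (adjusted p = 2.36e-42) and of 0.18 at 1 wpi (adjusted p = 0.207). The authors' test also gives b2m an adjusted p = 3.23e-33 in uninjured mutants, although uninjured wild type was at 681 and 289 CPM. Its p-values are thus not read here as a measure of the spread between libraries.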

How the data were processed

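Total RNA of 8 spinal cord libraries, 2 in each of 4 groups, was read as 50 bp pairs on an Illumina instrument, per the labels' protocols. The authors deposited 4 tables of CPM with the same libraries, each with 1 comparison of their own, whose log2 fold change, p-value and adjusted p-value are named per the file headers. The CPM agreed between tables to a relative difference of 1.13e-08. Bowtie2, Cufflinks and Cuffdiff are named in the submitters' processing notes, without versions. No build, annotation, counter or strand setting is given in these sources, so near-identical, overlapping and antisense genes are uncertain. The labels do not say that libraries of a group came from separate animals, so p-values of the tests run here measure the spread between these libraries, which may be technical. The column of injured wild type numbered 3 matched its group by name alone.

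Values of log2(CPM + 1) were tested with limma-trend (limma 3.58.1, R 4.3.3). A model of 4 group means took in all 8 libraries (4 residual degrees of freedom). It was fitted to 19114 genes, those whose mean reached 1 CPM in any group. The pseudocount understates changes of genes with few reads. Genes were called at a Benjamini-Hochberg adjusted p under 0.05 over all genes of each of 6 comparisons. Whole reads, recovered from the CPM for 100% of values within 0.01 reads, were tested with edgeR 4.0.16 (quasi-likelihood) and DESeq2 1.42.0 as alternatives. Scaling, filter, pseudocount, samples and replicate block were varied too, and the test was tried on simulated data. The members, gene lists and alternatives were chosen with earlier results of these data known. The genes named with values are all that passed a comparison, all of the inducible, activator, class II, transporter, tapasin and beta-2-microglobulin roles, the largest, smallest and most abundant of the others, and class I chains. RefSeq's gene list holds 75 of the 80 symbols and was used only for neighbours. Median absolute log2 differences between the libraries of a group were, over the tested members, 0.165 in injured mutants, 0.478 in uninjured mutants, 0.215 in injured wild type and 0.352 in uninjured wild type.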

Additional observations from a re-analysis of the deposited data

How the results depend on the processing

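No direction of a called gene was reversed under any alternative run. The number of genes called for injury averaged over genotypes (37) was 17 with TMM scaling, 21 without mitochondrially coded reads, 14 with edgeR, 23 with DESeq2, 15 without the 2 libraries richest in oocyte transcripts, and 9 to 47 with 1 library left out. For injury in mutants (8) it was 5 without a filter on low values, 1 with TMM scaling, 3 without mitochondrially coded reads, 0 with edgeR, 21 with only the groups compared, 3 without the oocyte-rich libraries, and 0 to 28 with 1 library left out. For injury in wild type (3) it was 0 without a filter, 0 with TMM scaling, 1 without mitochondrially coded reads, 0 with edgeR, 9 with DESeq2, 0 with only the groups compared, 0 without the oocyte-rich libraries, and 0 to 24 with 1 library left out. With 1 library left out the counts were 0 to 4 for mutant against wild type in uninjured cord, 0 to 0 at 1 wpi and 0 to 2 for the interaction; there a group's lone library is assumed to vary like the other groups. For the genotype comparisons and the interaction, the share of all genes called with 1 library left out is not given here. Those counts therefore cannot be set beside it, and no conclusion is drawn from them. The cause of the shifts in the counts of this paragraph was not tested. For injury in mutants, 2.94% of all genes were called higher in the main fit, 1.38% without a filter and 5.62% with only the groups compared. For injury in wild type the shares were 2.9%, 1.55% and 0.455% in the same order. Over the 48 calls of single genes, 46 stayed past the threshold with a pseudocount of 0.1 CPM and 48 with 5 CPM, against 17 with TMM scaling and 13 with edgeR. The replicate block, the library number as a factor, gave 9 genes for injury in wild type, 25 for injury in mutants and 43 for both averaged, all higher, beside 4.76%, 6.48% and 15.9% of all genes called higher. It gave 1 (mhc2dab, log2 -1.22, adjusted p = 0.0392 in limma) for uninjured mutants against wild type. The share of all genes called in that comparison is not given here, so this call cannot be set beside it. The groups holding numbers 1 and 2 had deviations correlated at 0.2991, 0.2132 and 0.1987, but no label says that a number marks a shared batch. Whether libraries of the same number share anything more than it was not tested. In that fit wild type 1 wpi 3 has a level of its own and drops out of the wild-type comparison. The planned fit without wild type 1 wpi 2 was run without wild type 1 wpi 3.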
